A study of Mus musculus with 8 samples.

Results

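Hbb-bs, Hbb-bt, Hba-a1, Hba-a2 and Alas2 are the adult β-globin, adult α-globin and erythroid heme synthesis genes of the mouse, and their transcripts were followed here in wound skin. The 5 genes were selected on their names from the 18540 genes of the count table, with their control and Z1C2Z values in these same samples already known and read as the blood content of the biopsies. Those values are therefore given as a description, without a test.

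The study asked how gene transcription in skin wounds responds to Z1C2Z, a composite of zinc peroxide (ZnO2) and cerium oxide (CeO2) nanoparticles in the zeolitic framework ZIF-8, in its version with the higher share of CeO2. RNA of 8 skin samples was sequenced after removal of ribosomal RNA, 4 labelled con, here called control, and 4 labelled shiyan, here called Z1C2Z. Control wounds received PBS at the wound edge, and Z1C2Z wounds received 100 μg/kg of the composite by injection, with tissue taken after 15 days of treatment. The study wounded both C57BL mice and diabetic db/db mice, which lack a working leptin receptor. The strain and age of the sequenced mice were not given in the sources used here. Each mouse carried a pair of full-thickness wounds on its back, and whether any samples shared a mouse is not in the labels. The p-values below therefore measure only the spread between these samples. The libraries held 28856790 to 38249438 counts in the control group and 33966536 to 38974888 in the Z1C2Z group. All 8 keratinocyte and all 6 fibroblast markers examined were expressed, with summed levels of 11918 to 18757 and of 43054 to 78015 CPM (counts per 1000000, with library totals scaled by the TMM method), respectively, over the 8 libraries.

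Hemoglobin carries oxygen in red blood cells as a tetramer of a pair of α chains and a pair of β chains, each holding a heme group. Alas2 encodes the erythroid form of 5-aminolevulinate synthase, the first and rate-limiting enzyme of heme synthesis. Red cells form in the bone marrow and spleen, and reticulocytes, the youngest red cells of the blood, still carry globin and Alas2 transcripts after the nucleus is lost. In skin such transcripts are mainly brought by blood in vessels or by bleeding.

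The promoters are shown because globin genes and Alas2 are switched on by the same erythroid factors, and because the members of each globin pair differ in how much of this sequence they share. The sequences are the 250 bases upstream of the transcription start in RefSeq, build GRCm38.p6, written 5′ to 3′ on the strand of the gene. Capitals mark 4 groups of short words found on either strand: the GATA words AGATAA and TGATAA, or either with G as its last letter (bound by GATA factors), CACCC (bound by Klf factors), CCAAT, and the TATA-like word ATATAA. Hbb-bs lies at chr7:103827929-103828178 and Hbb-bt at chr7:103813924-103814173, both on the minus strand. Hba-a1 lies at chr11:32283422-32283671 and Alas2 at chrX:150547167-150547416, both on the plus strand.
Hbb-bs: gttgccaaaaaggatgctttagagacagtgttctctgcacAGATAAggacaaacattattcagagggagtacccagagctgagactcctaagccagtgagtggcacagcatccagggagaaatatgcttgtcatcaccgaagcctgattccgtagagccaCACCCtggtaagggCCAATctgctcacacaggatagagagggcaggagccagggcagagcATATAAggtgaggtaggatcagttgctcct
Hbb-bt: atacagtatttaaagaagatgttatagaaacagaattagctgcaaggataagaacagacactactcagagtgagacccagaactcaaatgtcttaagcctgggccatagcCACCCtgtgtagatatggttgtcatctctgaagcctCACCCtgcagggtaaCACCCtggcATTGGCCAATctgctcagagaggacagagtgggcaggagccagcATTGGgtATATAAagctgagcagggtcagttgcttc
Hba-a1: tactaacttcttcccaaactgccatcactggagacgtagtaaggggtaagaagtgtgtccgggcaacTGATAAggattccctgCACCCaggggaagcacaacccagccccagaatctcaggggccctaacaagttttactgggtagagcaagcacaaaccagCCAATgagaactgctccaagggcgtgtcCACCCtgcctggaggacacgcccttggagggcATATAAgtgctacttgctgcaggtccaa
Alas2: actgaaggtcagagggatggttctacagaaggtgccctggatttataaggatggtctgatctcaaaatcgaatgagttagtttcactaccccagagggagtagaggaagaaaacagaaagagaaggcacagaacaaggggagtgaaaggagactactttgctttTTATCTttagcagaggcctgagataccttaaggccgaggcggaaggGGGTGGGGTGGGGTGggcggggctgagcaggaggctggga

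The upstream sequence of Hba-a2 (chr11:32296242-32296491, plus strand) shared an unbroken run of 247 of its 250 bases with that of Hba-a1, whereas the longest run shared by Hbb-bs and Hbb-bt was 14 bases. A GATA word was present upstream of Hbb-bs, Hba-a1, Hba-a2 and Alas2, once in each, and upstream of Hbb-bt no such word was found. CACCC occurred 3 times for Hbb-bt and for Alas2, 2 times for each α-globin gene and 1 time for Hbb-bs. ATATAA stood upstream of all 4 globin genes and not of Alas2. Of 32851 promoters of the same length, 26.5% held a GATA word, 52% held CACCC, 33.8% held CCAAT, 9.1% held ATATAA, and 11.8% held both a GATA word and CACCC. These matches describe letters only and no binding was measured.

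The β-globin genes gave the most counts. Hbb-bs had 115, 153, 143 and 228 CPM in control samples 1, 2, 3 and 5, and 59.0, 73.9, 48.7 and 134 CPM in Z1C2Z samples 1, 2, 4 and 5 (written control-1, Z1C2Z-1 and so on). The means were 160 ± 48.3 CPM in the control group and 79.0 ± 38.2 CPM in the Z1C2Z group (SD, n = 4 each), and the log2 fold change by edgeR was -1.02 (SE 0.32). Z1C2Z-5 was higher than control-1, so the groups overlapped, and the other 3 Z1C2Z samples lay below every control sample. Hbb-bt, the second adult β-globin gene, had 20.3, 19.0, 16.5 and 26.03 CPM in the controls and 7.78, 8.14, 4.92 and 15.03 CPM in the Z1C2Z samples, in the same order. Its means were 20.4 ± 4.04 and 8.97 ± 4.29 CPM (log2 fold change -1.19, SE 0.31), and every Z1C2Z sample was below every control sample.

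The α-globin genes also had control-5 as their highest sample. Hba-a1 had 46.0, 53.1, 47.6 and 83.8 CPM in the controls and 18.1, 25.8, 21.6 and 46.6 CPM in the Z1C2Z samples. The means were 57.6 ± 17.7 and 28.02 ± 12.8 CPM (log2 fold change -1.04, SE 0.31). Here Z1C2Z-5 stood between control-1 and control-3, and the other 3 Z1C2Z samples were below all controls. Hba-a2 had 6.15, 4.41, 4.71 and 10.4 CPM in the controls and 2.03, 3.58, 1.61 and 5.24 CPM in the Z1C2Z samples. Its means were 6.43 ± 2.79 and 3.11 ± 1.65 CPM (log2 fold change -1.05, SE 0.41). The groups overlapped through Z1C2Z-5, which exceeded control-2 and control-3. Hba-a2 rested on the fewest counts of the 5 genes, with 64 to 371 per library.

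Alas2 had 9.34, 11.6, 11.1 and 13.8 CPM in the controls and 4.43, 4.64, 2.81 and 8.57 CPM in the Z1C2Z samples. The means were 11.5 ± 1.83 and 5.11 ± 2.44 CPM (log2 fold change -1.17, SE 0.30), and the groups did not overlap. Control-5 was the highest control sample and Z1C2Z-5 the highest Z1C2Z sample for each of the 5 genes, and the lowest of all 8 samples was Z1C2Z-4 for each gene but Hba-a1, for which it was Z1C2Z-1. For 2 of the 5 genes, Hbb-bt and Alas2, every Z1C2Z sample was below every control sample, a pattern that 8.82% of the 15147 tested genes had. Since the genes were chosen with this contrast known, nothing is read from that count. Expressed as a share, the Z1C2Z mean was 43.9% to 49.4% of the control mean, and 2.01% to 3.02% of the tested genes had a lower log2 fold change. The median log2 fold change over all tested genes was 0.01. In bulk tissue, fewer cells of a type and less RNA per cell cannot be told apart.

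**Figure D1:**
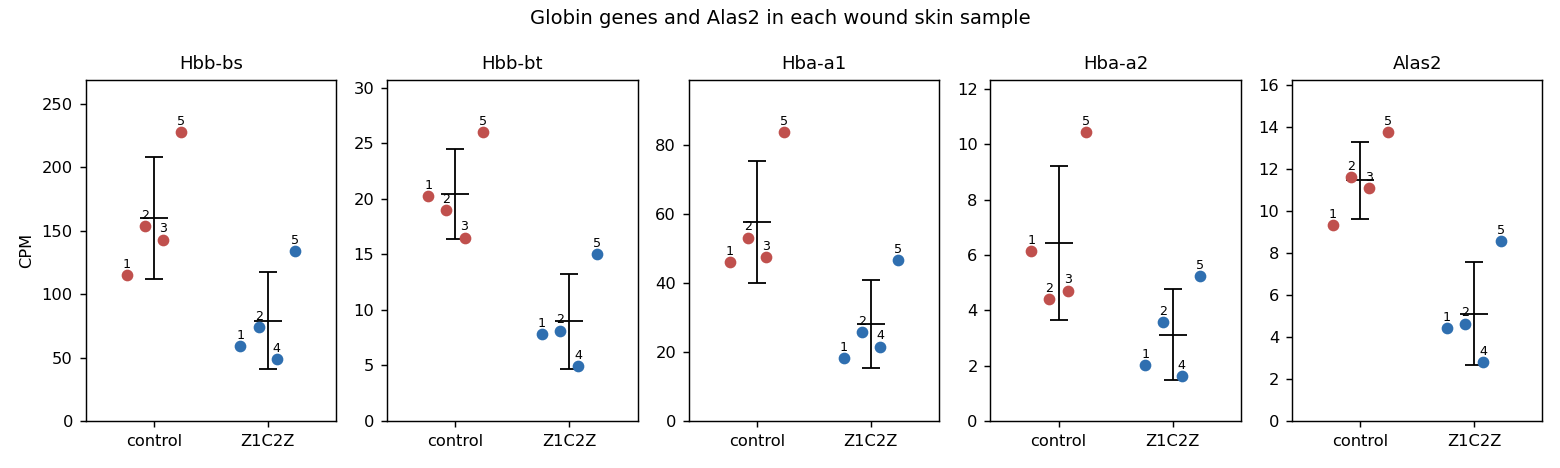
Level of Hbb-bs, Hbb-bt, Hba-a1, Hba-a2 and Alas2 in each sample, in CPM, with each point a sample marked by its number and the bars showing the group mean and SD (n = 4). Control-5 is the highest sample in each panel, and the groups do not overlap for Hbb-bt (16.5 to 26.03 against 4.92 to 15.03 CPM) and Alas2 (9.34 to 13.8 against 2.81 to 8.57 CPM).

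The 4 globin genes together took 0.0183% to 0.0323% of the counts of a control library and 0.00785% to 0.0208% of a Z1C2Z library. Their sum was 187, 230, 212 and 348 CPM in the controls and 87.0, 111, 76.8 and 201 CPM in the Z1C2Z samples. The mean sum was 2.05-fold higher in the control group (244 ± 71.5 against 119 ± 56.6 CPM), with an overlap between control-1 and Z1C2Z-5. Over all 8 samples the highest sum was 4.53 times the lowest.

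Levels of different genes were compared per kilobase of transcript, using the longest coding transcript of each gene in GENCODE vM21. In the control group the level was 255 ± 76.8 CPM per kb for Hbb-bs, 82.4 ± 25.4 for Hba-a1, 29.1 ± 5.75 for Hbb-bt, 11.6 ± 5.03 for Hba-a2 and 5.62 ± 0.897 for Alas2. In the Z1C2Z group the order was the same, at 126 ± 60.9, 40.1 ± 18.3, 12.8 ± 6.10, 5.62 ± 2.98 and 2.51 ± 1.20 CPM per kb. Neighbours in this order did not overlap among the control samples. Among the Z1C2Z samples the ranges of Hbb-bt (7.00 to 21.4 CPM per kb) and Hba-a2 (2.90 to 9.46) overlapped, as did those of Hba-a2 and Alas2 (1.38 to 4.21).

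The reading frames of Hba-a1 and Hba-a2 differ at 1 of 429 bases and those of Hbb-bs and Hbb-bt at 1 of 444 bases. The transcripts of each pair share unbroken runs of 415 and 430 bases. Whether the authors' counting kept reads from such runs, and how it divided them, is not given in the sources used here, so the level of each gene within a pair is uncertain, and sums over a pair are free of this only if such reads were kept.

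Ratios between the genes, unlike their levels, lay in similar ranges in both groups. The ratio of β-globin to α-globin counts was 2.83 ± 0.222 in the control group and 2.83 ± 0.409 in the Z1C2Z group, with a range of 2.32 to 3.31 over the 8 samples. The globin genes had 21.1 ± 2.85 counts per Alas2 count in the control group and 23.6 ± 3.15 in the Z1C2Z group. Hba-a1 had 9.41 ± 2.09 and 9.61 ± 2.66 counts per Hba-a2 count in the control and Z1C2Z groups, respectively. The ratio of Hbb-bs to Hbb-bt was 7.80 ± 1.44 in the control group and 8.87 ± 0.961 in the Z1C2Z group. The groups overlapped in each of these 4 ratios. The highest sample was 1.74 to 1.86 times the lowest for the ratios within a pair and 1.43 times for the other ratios, beside 4.53 times for the globin sum.

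Control-1 had the lowest ratio of Hbb-bs to Hbb-bt, at 5.68. Hbb-bt made up 14.96% of the β-globin counts there (exact binomial 95% confidence interval 13.8% to 16.1%), against 9.17% to 11.7% in the other 7 samples. The share of Hba-a2 in the α-globin counts was 6.93% in Z1C2Z-4 (5.38% to 8.77%) and 12.2% in Z1C2Z-2 (10.3% to 14.2%), the lowest and highest values. The intervals cover counting error only.

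**Figure D2:**
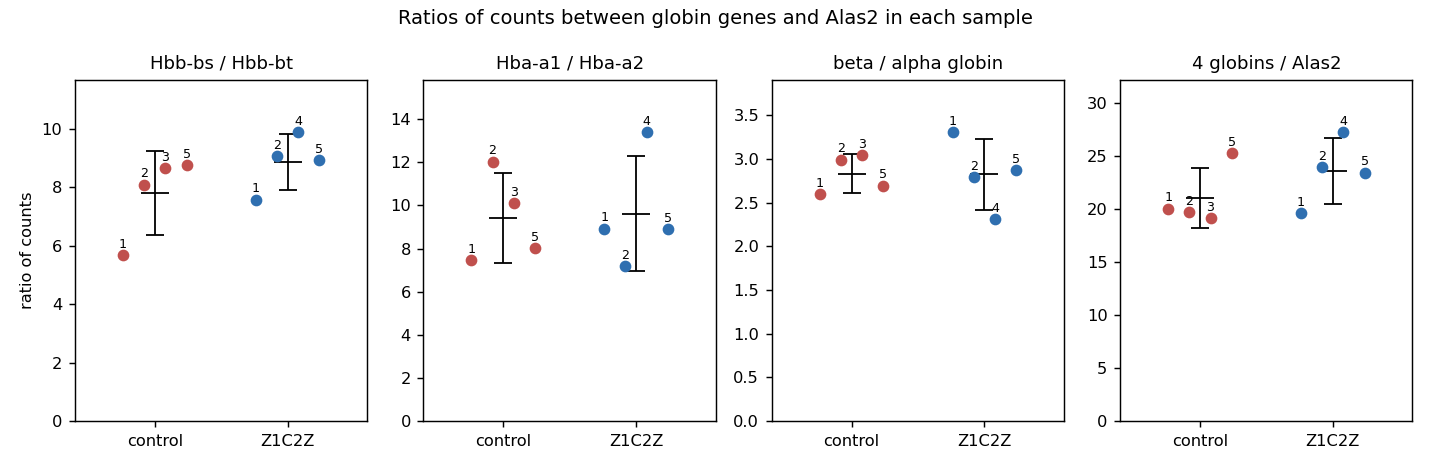
Ratio of counts of Hbb-bs to Hbb-bt, of Hba-a1 to Hba-a2, of β-globin to α-globin genes and of the 4 globin genes to Alas2, in each sample, with points marked by sample number and bars showing the group mean and SD (n = 4). The groups overlap in every panel, and the β to α ratio averages 2.83 in both.

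Genes that act with hemoglobin in red cell formation were examined as lists. Of all 15147 tested genes, 4.28% were higher and 3.85% were lower in Z1C2Z at an adjusted p under 0.05 (edgeR quasi-likelihood test, Benjamini-Hochberg adjustment). The 47 tested genes of the heme synthesis, red cell membrane, red cell enzyme and erythroid transcription factor lists held 4 that were higher and 0 that were lower. At an unadjusted p under 0.05 the counts were 11 and 6, beside 12.8% higher and 15.2% lower of all tested genes, and with DESeq2 they were 7 and 3, beside 7.96% and 10.2%. The median log2 fold change over the 47 genes was 0.06, and 20 of them were below 0.

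**Figure D3:**
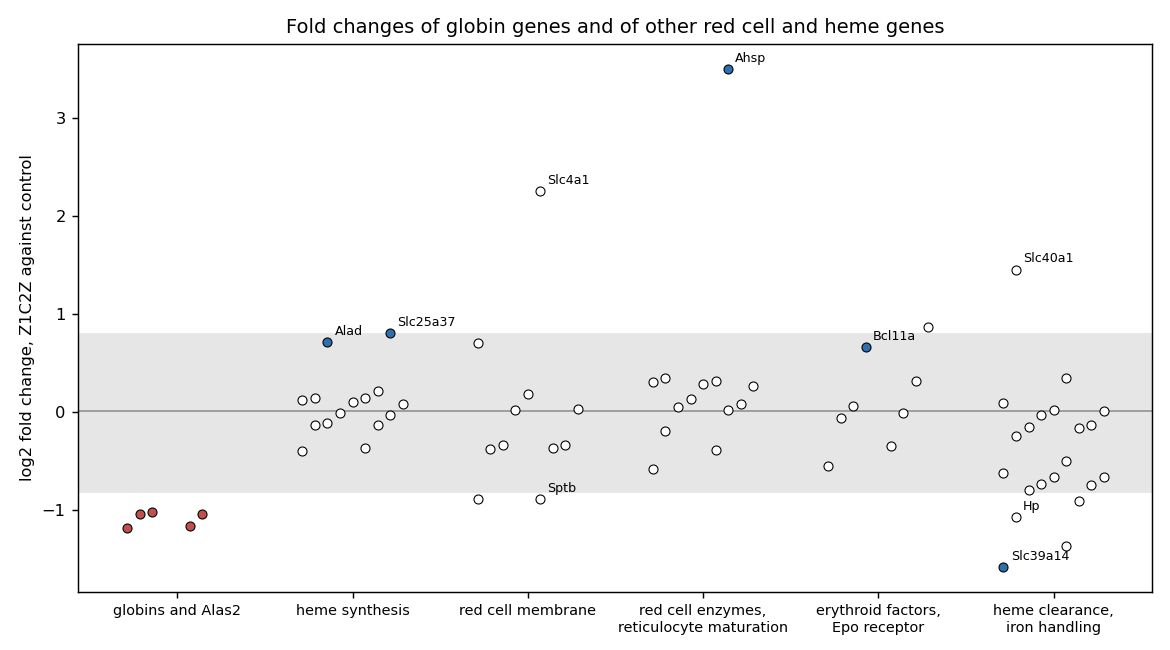
Log2 fold change (Z1C2Z minus control, edgeR) of Hbb-bs, Hbb-bt, Hba-a1, Hba-a2 and Alas2 and of the tested genes of each list, with each point a gene, red for the 5 genes (no test), blue where the adjusted p was under 0.05 and open where it was not; the line and grey band show the median and the range between percentiles 5 and 95 (-0.82 to 0.79) of all tested genes. The 5 genes lie between -1.19 and -1.02, whereas the medians of the 4 erythroid lists lie between -0.34 and 0.13.

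Of 15 heme synthesis genes tested, 2 were higher and 0 were lower in Z1C2Z (DESeq2, 2 and 2; unadjusted, 2 and 2). Alad, the second enzyme of the pathway, rose from 13.2 ± 1.77 to 21.6 ± 2.28 CPM (log2 fold change 0.71, SE 0.13, adjusted p = 0.0299 by edgeR). Slc25a37, the mitoferrin that brings iron into mitochondria, rose from 39.5 ± 3.61 to 69.0 ± 17.8 CPM (log2 fold change 0.81, SE 0.19, adjusted p = 0.0376 by edgeR). For both genes every Z1C2Z sample was above every control sample. The share of all tested genes with that pattern was not counted, and the opposite pattern was found in 8.82% of them. Alas1, the 5-aminolevulinate synthase of tissues other than red cells, had 54.9 ± 3.84 and 50.1 ± 3.12 CPM and did not pass. Fech, which inserts iron into the ring, and Cpox had log2 fold changes of -0.03 and 0.09 and did not pass either.

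In the red cell membrane list 0 of 11 tested genes passed in either direction (edgeR), with 2 higher and 3 lower at an unadjusted p under 0.05 and 2 higher and 1 lower with DESeq2. The most abundant, Epb41, Tmod1, Gypc and Ank1, had log2 fold changes of 0.19, -0.34, -0.34 and -0.37. Slc4a1, the band 3 anion exchanger and main protein of the red cell membrane, is named here after its values were seen. It had 4, 28, 74 and 21 counts in the controls and 129, 207, 260 and 62 counts in the Z1C2Z samples, opposite in direction to the globin genes (log2 fold change 2.26, SE 0.65, edgeR adjusted p = 0.0640).

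Of 13 red cell enzyme and reticulocyte maturation genes tested, 1 was higher and 0 were lower (DESeq2, 2 and 0; unadjusted, 5 and 1). This was Ahsp, which encodes the chaperone of free α-globin. It had 1, 2, 14 and 6 counts in the controls and 37, 128, 120 and 10 counts in the Z1C2Z samples, or 0.161 ± 0.161 against 1.91 ± 1.48 CPM (log2 fold change 3.50, SE 0.87, edgeR adjusted p = 0.0441). Z1C2Z-5 lay below control-3, so the groups overlapped, and the counts were low. The most abundant genes, the mitophagy receptor Bnip3l, the peroxidases Gpx1 and Prdx2, and the nuclear export receptor Xpo7, had log2 fold changes of 0.26, -0.19, 0.35 and 0.13 and did not pass.

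Of 8 genes tested in the list of erythroid transcription factors and the erythropoietin receptor, 1 was higher and 0 were lower (DESeq2, 1 and 0; unadjusted, 2 and 0). Bcl11a, a repressor of fetal globin genes that other cell types also use, rose from 6.23 ± 1.05 to 9.85 ± 0.889 CPM (log2 fold change 0.66, SE 0.15, edgeR adjusted p = 0.0390). Ldb1, Lmo2, Cbfa2t3 and Zfpm1 had log2 fold changes of 0.31, -0.01, 0.06 and -0.07 and did not pass. A further 17 genes of these lists and of the other globin genes did not reach the low-count filter. They included Gata1 and Klf1, the main erythroid factors, with at most 12 and 8 counts in a library. The embryonic globin Hbb-bh1 and the θ-globins Hbq1a and Hbq1b had at most 4 counts in a library. The 17 genes summed to 29 to 42 counts in a control library and 31 to 42 in a Z1C2Z library, beside 5276 to 12368 and 3060 to 7253 counts of the 4 adult globin genes.

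**Figure D4:**
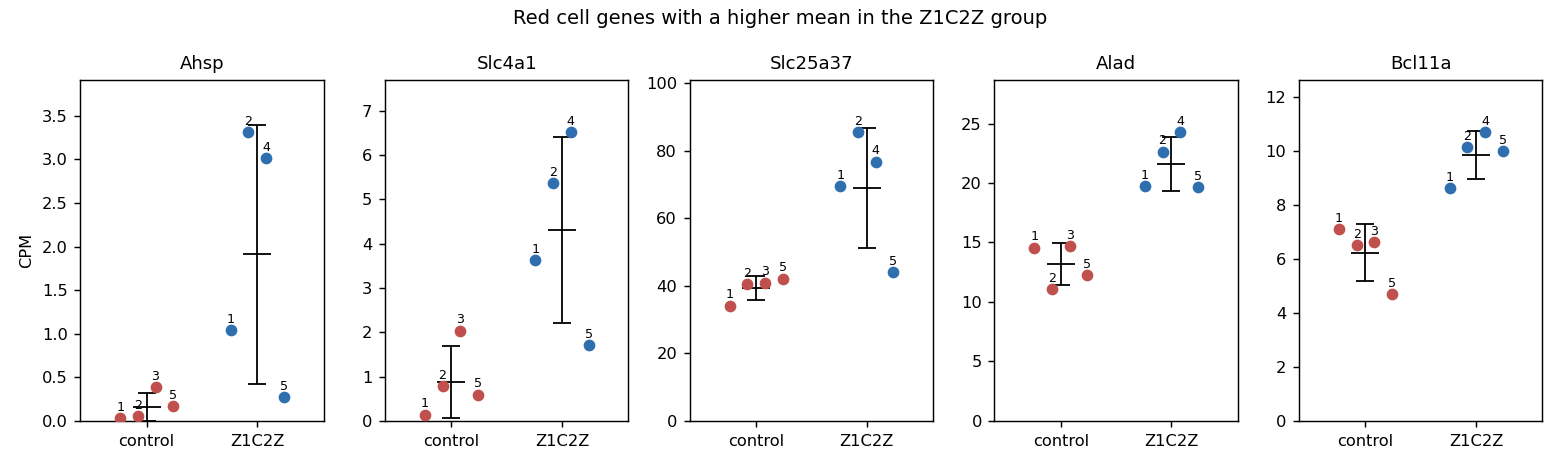
Level in each sample, in CPM, of Ahsp, Slc4a1, Slc25a37, Alad and Bcl11a, picked from the erythroid lists for their higher mean in the Z1C2Z group. Points are marked by sample number and bars show the group mean and SD (n = 4). The Z1C2Z means lie above the control means for Ahsp (1.91 against 0.161 CPM), Slc4a1 (4.31 against 0.887 CPM) and Slc25a37 (69.0 against 39.5 CPM), with Z1C2Z-2 and Z1C2Z-4 the highest samples.

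Released hemoglobin is bound by haptoglobin and heme by hemopexin, macrophages take both up and break the heme down, and the iron is stored in ferritin or exported. Of 21 tested genes of clearance and iron handling, 0 were higher and 1 was lower in Z1C2Z, the median log2 fold change was -0.50, and 16 genes were below 0. At an unadjusted p under 0.05 the counts were 1 and 8, and with DESeq2 1 and 6. Slc39a14, a transporter of zinc, iron and manganese, fell from 258 ± 88.5 to 86.2 ± 29.6 CPM (log2 fold change -1.58, SE 0.31, edgeR adjusted p = 0.0303). Haptoglobin (Hp) had 328 ± 136 and 156 ± 39.3 CPM (log2 fold change -1.07, adjusted p = 0.0515 by edgeR). Its Z1C2Z samples all lay below every control sample, as for 8.82% of all tested genes. The ferritin chains Fth1 and Ftl1 and the receptor Lrp1 had log2 fold changes of -0.67, -0.25 and -0.80 and did not pass. Named after their values were seen, the hemoglobin receptor Cd163 and heme oxygenase Hmox1 had log2 fold changes of -0.50 and -0.91, and the iron exporter Slc40a1 had one of 1.45 (adjusted p = 0.0502 by edgeR).

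The 5 called genes Alad, Slc25a37, Ahsp, Bcl11a and Slc39a14 depended on single libraries. None of them passed without control-2 (edgeR adjusted p 0.0584 to 0.0965), control-5 (0.0778 to 0.119) or Z1C2Z-1 (0.0661 to 0.0754), nor without Z1C2Z-2 (0.0888 to 0.125) or Z1C2Z-4 (0.0876 to 0.121). Without control-1 and without control-3, 3 of the 5 passed in each case, and without Z1C2Z-5 all 5 passed. In the 4 fits without control-5, Z1C2Z-1, Z1C2Z-2 and without Z1C2Z-4, 0 of all tested genes passed by edgeR in either direction, and the number with an unadjusted p under 0.05 was 3223, 4208, 3137 and 3100 in that order.

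Markers of other blood cells, of vessels and of tissues of the biopsy were examined as other sources of blood-borne RNA and for the labelled tissue. These lists too were chosen with earlier results of these data known. For platelets, 5 of 12 genes were tested and 0 passed (edgeR; unadjusted, 1 higher and 3 lower; DESeq2, 0 and 2). Their summed level was 60.8 to 115 CPM in the controls and 31.9 to 65.3 CPM in the Z1C2Z samples, most of it from Pf4, platelet factor 4, which macrophages also express (75.5 ± 24.1 against 38.1 ± 12.8 CPM, edgeR adjusted p = 0.0648). The log2 fold changes of Ppbp and Itga2b were -1.43 and -0.55 and those of Gp1bb and Gp5 were 0.47 and 2.30, with a median of -0.55 over the 5 genes and 3 of them below 0, and Gp9 and Gp6 were at or near 0. For neutrophils, 9 of 12 genes were tested and 0 passed (unadjusted, 0 and 4; DESeq2, 0 and 2), with a median log2 fold change of -1.12. The sum of this list was 578 to 1513 CPM in the controls and 171 to 664 CPM in the Z1C2Z samples. Most of it came from S100a9 (628 ± 247 against 244 ± 117 CPM) and S100a8 (378 ± 152 against 157 ± 68.3 CPM), while Ly6g and Elane were near 0. The sum is thus mainly a level of S100a9 and S100a8. Csf3r and Cxcr2 had log2 fold changes of -1.19 and -1.09 with overlapping groups, and 8 of the 9 tested genes were below 0. The single tested B cell gene, Cd79b, had a log2 fold change of 0.61 and did not pass (unadjusted and DESeq2, 0).

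Endothelial genes were lower on average without passing the test. Of 12 tested, 0 passed (edgeR; unadjusted, 0 higher and 7 lower; DESeq2, 0 and 3), 11 were below 0, and the median log2 fold change was -0.73. Pecam1, the adhesion molecule CD31, had 232 ± 83.1 CPM in the control group and 134 ± 35.0 CPM in the Z1C2Z group. The endothelial sum was 440 to 1193 CPM in the controls and 388 to 700 CPM in the Z1C2Z samples. As a ratio chosen after its values were seen, the globin genes had 0.304 ± 0.0859 counts per endothelial count in the control group and 0.227 ± 0.0585 in the Z1C2Z group, with overlap. The ratio of the group means was 1.34 on this scale, beside 2.05 for the globin sum in CPM. Control-1 was the highest sample at 0.426, whereas control-2, control-3 and control-5 had 0.227, 0.270 and 0.292. The Z1C2Z samples had 0.160 to 0.287. Of 10 pericyte and smooth muscle genes 3 were lower (Acta2, Cnn1 and Des, the last also a muscle gene) and 0 were higher (unadjusted, 8 lower and 0 higher; DESeq2, 7 lower and 0 higher), with sums of 1288 to 2132 CPM and 942 to 1171 CPM that did not overlap.

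Among the other tissues, 0 of 8 keratinocyte genes passed (unadjusted and DESeq2, 0 in each direction), and 2 of 6 fibroblast genes were lower (Dcn and Lum), while all 6 were lower at an unadjusted p under 0.05 and with DESeq2. Of 10 skeletal muscle genes 3 were lower (Acta1, Myh1 and Myh2; 6 unadjusted and 6 with DESeq2), and the muscle sum was 3300 to 6034 CPM in the controls and 2816 to 3105 CPM in the Z1C2Z samples. All 8 hair shaft keratins were higher, with sums of 57.6 to 316 CPM in the controls and 350 to 3053 CPM in the Z1C2Z samples. Z1C2Z-2 and Z1C2Z-4 had the highest hair shaft sums, as they had the highest values of Ahsp, Slc4a1, Slc25a37, Alad and Slc40a1, and Z1C2Z-5 had the lowest sum of its group. The globin relatives of other cells, myoglobin (Mb) and cytoglobin (Cygb), had log2 fold changes of -0.22 and 0.05 and did not pass (0 of 2 with edgeR; unadjusted and DESeq2, 0). Across all these cell type lists 8 genes were higher, all of them hair shaft keratins, and 8 were lower. Over all tested genes the shares were 4.28% and 3.85%. None of the called list genes passed without control-5, nor without Z1C2Z-1, without Z1C2Z-2 or without Z1C2Z-4, and without control-2 the counts in these lists were 0 and 1. The lower count was 22 without control-1. The part of blood cells, vessels, muscle and hair follicles in the globin and erythroid values was not tested.

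**Figure D5:**
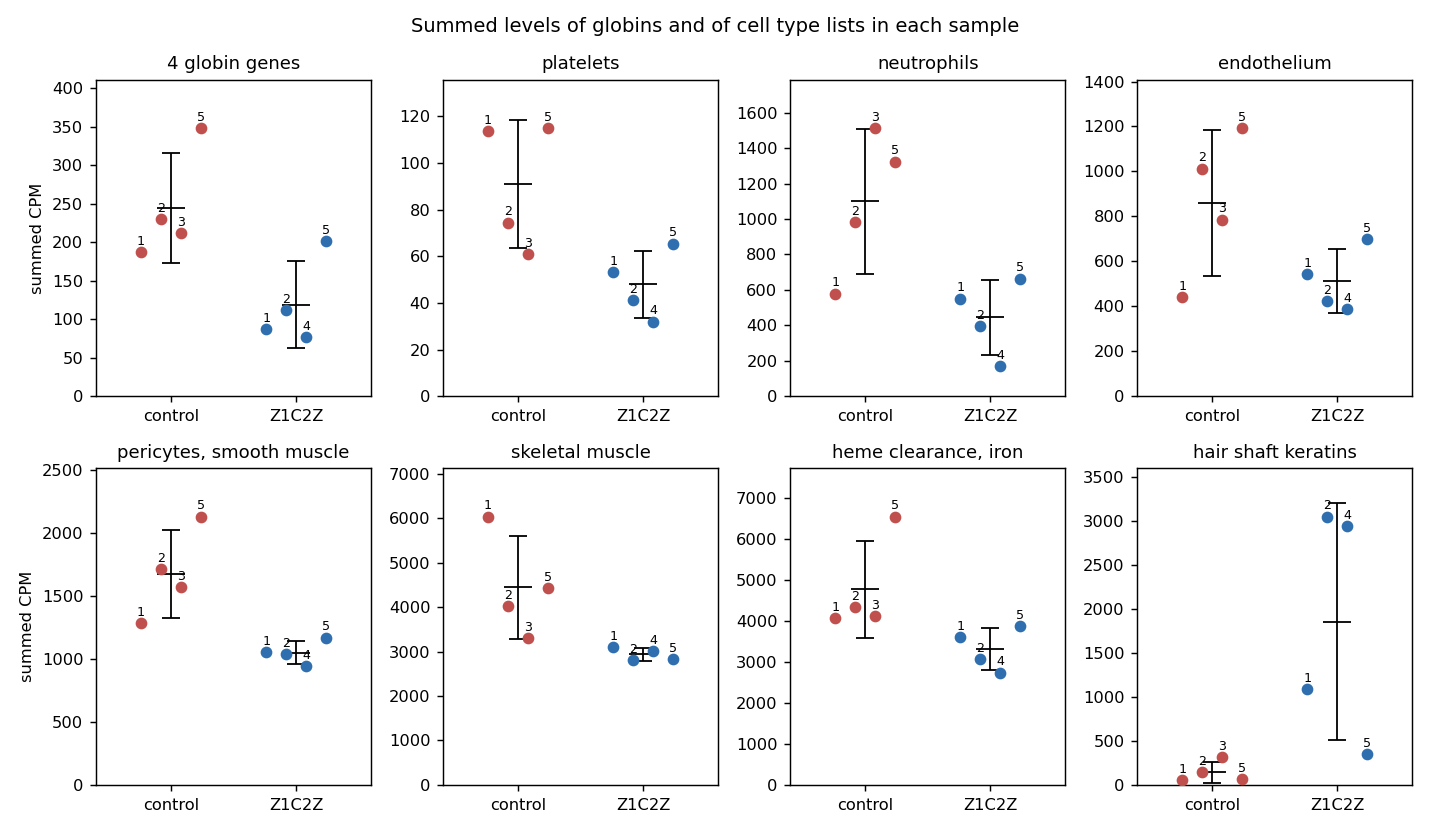
Summed level, in CPM, of the 4 globin genes and of 7 lists of marker genes in each sample, with points marked by sample number and bars showing the group mean and SD (n = 4). Control-5 is high and Z1C2Z-4 low for the globin, platelet and endothelial sums, whereas the hair shaft sum is highest in Z1C2Z-2 and Z1C2Z-4.

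The 5 genes varied together over the 8 samples. The correlation of their log2 levels ran from 0.90 for Hba-a2 with Alas2 to 0.98 for Hbb-bt with Alas2, and from 0.80 to 0.95 after the group means were subtracted. All values come from the same 8 libraries, and part of the agreement within each globin pair can come from shared reads. The tested genes with the pattern most like their mean log2 level, by Pearson's r over the 8 samples, were S1pr2 (0.99), Igf2bp2 (0.97), Zfp697 (0.97), Stk38l (0.97), Tes (0.97), Nts (0.96), Macir (0.96) and Polr3d (0.96). After subtraction of the group means their r was between 0.88 and 0.96. Igf2bp2, an RNA-binding protein gene, had 17.2 ± 4.47 and 7.07 ± 2.29 CPM, a larger difference on the log2 scale (-1.28) than S1pr2, a sphingosine-1-phosphate receptor gene, with 31.0 ± 2.97 and 24.04 ± 3.30 CPM (-0.37). The likeness is one of pattern over samples, among 15147 genes, and is given without a test.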

How the data were processed

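RNA of 4 control and 4 Z1C2Z wound skin samples was sequenced after ribosomal RNA removal, with random primers and dUTP in the second strand, per the labels. One table deposited by the authors held raw read counts for 18540 genes. The aligner, counting program, genome build, annotation and strand setting were not given in the sources used here. The labels name Trizol and the methods another extraction kit. Samples were grouped by their titles, and 0 columns of per-sample values were left unused. No pair of libraries agreed within sampling noise (smallest chi-square per degree of freedom 21.8).

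The analysis used edgeR 4.0.16 and limma 3.58.1 under R 4.3.3. Genes kept by filterByExpr (15147) were scaled by TMM and tested with the quasi-likelihood test and Benjamini-Hochberg adjustment at 0.05, without covariates. CPM used TMM library sizes, and log2 CPM used a prior count of 2. The 5 genes, the gene lists and the tests were chosen with earlier results of these data known, and no adjusted p is given for the 5 genes. Named list genes were those that passed and the 4 most abundant of each list, of which a few cell type genes are not named, and the 8 genes most like the 5 by correlation. Genes under the filter are named as examples, and other exceptions are marked in the text. Transcript lengths came from GENCODE vM21 and promoters from RefSeq. Alternatives were DESeq2 1.42.0, RLE scaling, a minimum of 10 counts in each sample or no filter on counts, library sizes without the 5 genes, a block by sample number, and leaving out each sample. Figures were drawn with Python 3.11.15 and matplotlib 3.10.9. Counts of the 5 genes ran from 64 to 8097 per library.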

Additional observations from a re-analysis of the deposited data

Results flagged for a closer look

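In 3 of 94 groups of 4 samples, 1 sample stood far from the other 3 relative to the range of the group, past Dixon's 95% criterion, which chance passes in about 1 in 20 groups. The 4 globin genes had 25.3 counts per Alas2 count in control-5, where the other controls had 19.1 to 20.1. The summed level of the clearance and iron handling genes was 6540 CPM in control-5 and 4071 to 4332 CPM in the other controls. Dcn, a fibroblast proteoglycan gene, had 2693 CPM in Z1C2Z-5, against 2470 to 2481 CPM in the other Z1C2Z samples.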

How the results depend on the processing

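The log2 fold change of each of the 5 genes was below 0 under all 14 alternatives. It ranged over the fits without 1 sample from -1.56 to -0.99 for Hbb-bt, -1.40 to -0.79 for Hbb-bs, -1.40 to -0.80 for Hba-a1, -1.42 to -0.70 for Hba-a2 and -1.54 to -0.97 for Alas2. Counts of genes passing depended on the tool and on single samples. DESeq2 gave 1206 higher and 1539 lower genes in place of 648 and 583, with 8 and 9 in the erythroid and clearance lists in place of 4 and 1, and 26 lower in the cell type lists in place of 8. The replicate block by sample number gave 301 and 253 genes, 2 and 2 in the erythroid and clearance lists and 4 lower in the cell type lists. Of the 5 genes called there without the block only Slc39a14 passed with it (edgeR adjusted p = 0.00519). Alad, Slc25a37, Ahsp and Bcl11a did not (edgeR adjusted p 0.0950, 0.166, 0.112 and 0.201), and Hp, Slc40a1 and Slc4a1 did. Control-3 and Z1C2Z-4 share their number with no sample of the other group. Under the block they add nothing to the group contrast, which then rests on fewer samples. The samples with the 3 shared numbers had correlations of deviations of -0.10, -0.06 and 0.32. These few values cannot decide whether such samples were paired, and the block is read only as a shared number. Leaving out 1 sample gave 0 to 886 higher and 0 to 868 lower genes, 0 to 6 and 0 to 3 in the erythroid and clearance lists, and 0 to 8 and 0 to 22 in the cell type lists. The causes were not tested. With 1 sample left out, the mean ratio of Hbb-bs to Hbb-bt was 8.11 to 8.72 and that of Hba-a1 to Hba-a2 8.95 to 9.84. The mean ratio of β-globin to α-globin was 2.76 to 2.90 and that of the globins to Alas2 21.6 to 22.8. A mean over 8 samples can shift only little when 1 is left out, so nothing is read from these ranges. Genes such as Gata1 and Klf1 could not be compared at this depth.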
